A study of Mus musculus with 23 samples.

Results

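Carbonic anhydrase genes were followed in TM4 cells, an immortalized Sertoli cell line from the mouse, treated with 5 plasticizers. The set of 10 genes held Car2, Car3, Car4, Car5b, Car6, Car8, Car9, Car12, Car13 and Car14, out of 16 carbonic anhydrase genes and 20145 named genes on the array. It was selected on earlier results of the same arrays, in which Car6 stood out for its change with dioctyl maleate. The differences of these genes from the vehicle are therefore a description, with no p-value. Whether a member passed the call rule of the fit is stated for completeness and supports nothing. The standard errors and intervals printed with these differences show the precision of the fit and are not adjusted for the selection. Whether such an interval includes no change therefore supports nothing either. Members were read from the 12 non-control probes whose RefSeq transcript belonged to them, with 1 probe per gene except for Car4 and Car8, which had 2 each. Cultures received 100 µM of a compound for 48 hr in 1% DMSO, or 1% DMSO alone. The compounds were MEHP (mono(2-ethylhexyl) phthalate, which the body makes from a common phthalate plasticizer), the commercial plasticizer DINCH (a diisononyl ester of cyclohexane dicarboxylic acid), dioctyl maleate (DOM), dioctyl succinate (DOS) and 1,4-butanediol dibenzoate (BDB). DOM and DOS carry the same alcohols and differ in the central acid, which has a double bond in the maleate and a saturated bond in the succinate. Each group had 4 1-colour Agilent arrays, except DOS with 3 (replicates 1, 3 and 4), because the authors left out a DOS replicate for high background.

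Carbonic anhydrases are zinc enzymes that turn carbon dioxide and water into bicarbonate and a proton, and back. The isoforms differ mainly in where they work. Car2, Car3 and Car13 are cytosolic, Car5b lies in mitochondria, Car4, Car9, Car12 and Car14 are bound to the cell membrane with the active site outside, and Car6 is secreted, best known from saliva and milk. Mouse Car6 also has a shorter intracellular form that is made in stressed cells under the transcription factor CHOP. Car8 keeps the fold of the family but lacks activity, and binds the inositol trisphosphate receptor. In the testis and its ducts bicarbonate and pH matter for sperm, and Sertoli cells, which nurse the germ cells and export lactate, move both bicarbonate and protons across their membrane.

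Levels are log2 intensities relative to the 75th percentile of the same array, so that 0 is a bright spot of that array and a difference of 1 is a factor of 2. They can be compared between groups for a probe, but not between probes. Brightness over background stands in for depth on an array: between 43.4% and 52.2% of the non-control spots were well above background, as judged by the extraction software, and none was saturated. Of 15 Sertoli cell markers 7 were well above background on all 23 arrays, among them Gata4, Dhh and Dmrt1, whereas Wt1, Fshr and Cldn11 were on none, so several defining markers were not detected. Markers of other testis cells detected on all arrays were Cyp17a1 (1 of 5 Leydig cell markers measured), Prm1 (1 of 5 germ cell markers), Csf1r (1 of 3 macrophage markers), and Acta2 and Cnn1 (2 of 4 smooth muscle markers). Their part in the results below was not tested. The arrays lay on 3 slides. MEHP, DINCH and BDB arrays occupied other slide rows than DMSO, so the row and the treatment cannot be told apart for these 3, while DOM and DOS shared the rows of DMSO. The same 4 DMSO arrays served all 5 comparisons.

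Promoter sequences from RefSeq (build GRCm38.p6, 250 bases before to 50 after the transcription start, 5′ to 3′ on the strand of the gene) were on hand for 6 of the 10 members. Those of the 3 genes with a call against DMSO, and of Car9, the textbook target of the hypoxia-inducible factors (HIF), are shown with each ACGTG, the core of the hypoxia response element, in capitals on either strand. The windows span chr4:150201086-150201385 for Car6 (− strand), chr9:66713436-66713735 for Car12 (+), chrX:164027961-164028260 for Car5b (−) and chr4:43506776-43507075 for Car9 (+).
Car6: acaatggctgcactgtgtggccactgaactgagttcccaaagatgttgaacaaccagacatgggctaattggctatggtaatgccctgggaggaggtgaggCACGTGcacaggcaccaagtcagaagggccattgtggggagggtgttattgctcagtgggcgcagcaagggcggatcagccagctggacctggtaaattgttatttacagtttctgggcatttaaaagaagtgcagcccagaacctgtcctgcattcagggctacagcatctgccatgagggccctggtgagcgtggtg
Car12: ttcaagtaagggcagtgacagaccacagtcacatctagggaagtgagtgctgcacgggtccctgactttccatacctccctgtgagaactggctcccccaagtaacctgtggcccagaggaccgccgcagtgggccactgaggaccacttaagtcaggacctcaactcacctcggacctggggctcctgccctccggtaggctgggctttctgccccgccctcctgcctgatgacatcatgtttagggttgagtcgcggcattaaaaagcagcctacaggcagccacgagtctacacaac
Car5b: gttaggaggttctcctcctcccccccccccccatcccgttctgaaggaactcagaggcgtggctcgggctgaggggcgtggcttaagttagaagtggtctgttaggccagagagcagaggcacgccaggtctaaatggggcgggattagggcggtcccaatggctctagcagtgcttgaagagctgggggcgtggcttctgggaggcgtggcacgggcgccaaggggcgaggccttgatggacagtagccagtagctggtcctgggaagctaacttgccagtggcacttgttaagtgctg
Car9: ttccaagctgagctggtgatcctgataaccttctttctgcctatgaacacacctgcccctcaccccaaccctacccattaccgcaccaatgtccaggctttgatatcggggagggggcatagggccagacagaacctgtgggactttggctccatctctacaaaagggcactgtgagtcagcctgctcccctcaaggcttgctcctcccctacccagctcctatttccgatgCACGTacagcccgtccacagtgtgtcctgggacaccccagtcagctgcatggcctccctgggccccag
The Car6 window held 2 overlapping matches to ACGTG, 1 on each strand, which together form the E-box CACGTG that starts at position −149 from the transcription start. The Car9 window held 1 match, on the opposite strand with its first base at −18, and the windows of Car12 and Car5b held none. The windows of Car4 and Car14, not shown, also held 1 match each. Both were on the opposite strand, with the first base at 3 for Car4 and −7 for Car14. ACGTG was present on either strand in 19.6% and CACGTG in 7.15% of 32851 mouse promoter windows of the same length. The composite C/EBP and ATF element TGATGCAA, the kind of site that CHOP and ATF4 bind, was found in 0.895% of the windows and in none of the 6 members. These matches describe the letters of the window only.

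Car6 had the widest range of the members, from −2.20 to 2.34, and was well above background on all 23 arrays. Whether its single probe reads the secreted form, the shorter intracellular form or both was not tested. Its level in DMSO was 2.24, 1.66, 1.91 and 2.34 on replicates 1 to 4. With DOM it was −0.59, −2.06, −2.20 and −1.22, so that every DOM array lay more than 2 log2 units below the lowest DMSO array. The mean fell from 2.04 ± 0.31 (SD, n = 4) to −1.52 ± 0.75 (SD, n = 4), a difference of −3.55 (standard error 0.34, 95% interval −4.32 to −2.79) or 11.7-fold. Among 12001 genes measured in this comparison, each by its brightest probe, only 3 had a lower difference. Since Car6 was selected for this change, neither its rank nor its interval supports anything. An array reads the RNA of a whole culture, so fewer cells that make the transcript and less of it in each cell cannot be told apart.

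MEHP and DOS had lower Car6 than DMSO by similar amounts. The MEHP arrays were at −0.52, −0.48, 0.53 and 0.36, and the DOS arrays at −0.76, 0.19 and 0.56. All 7 lay below every DMSO array. The difference was −2.07 for MEHP (standard error 0.27, 95% interval −2.67 to −1.46, 4.19-fold) and −2.04 for DOS (standard error 0.30, 95% interval −2.73 to −1.34, 4.10-fold). For DOS this was rank 2 from the lowest of 11933 differences, and for MEHP rank 5 of 11947. Car6 had rank 29 of 11965 for BDB and 652 of 11913 for DINCH. The same DMSO arrays stand behind all these ranks and the intervals of all compounds, so ranks and intervals are not independent of the selection. Levels with BDB were 0.88, 1.75, 0.75 and 1.64, of which replicate 2 lay above the lowest DMSO array, and the difference was −0.78 (standard error 0.25, 95% interval −1.35 to −0.21). DINCH changed Car6 least, with 2.08, 0.99, 1.12 and 1.75 and a difference of −0.55 (standard error 0.25, 95% interval −1.12 to 0.03). Ordered by mean, the groups ran from DMSO through DINCH (1.49), BDB (1.25), DOS (0.00) and MEHP (−0.03) to DOM. Neighbours in this order overlapped in their arrays except at 2 steps, from BDB to DOS and from MEHP to DOM.

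**Figure D1:**
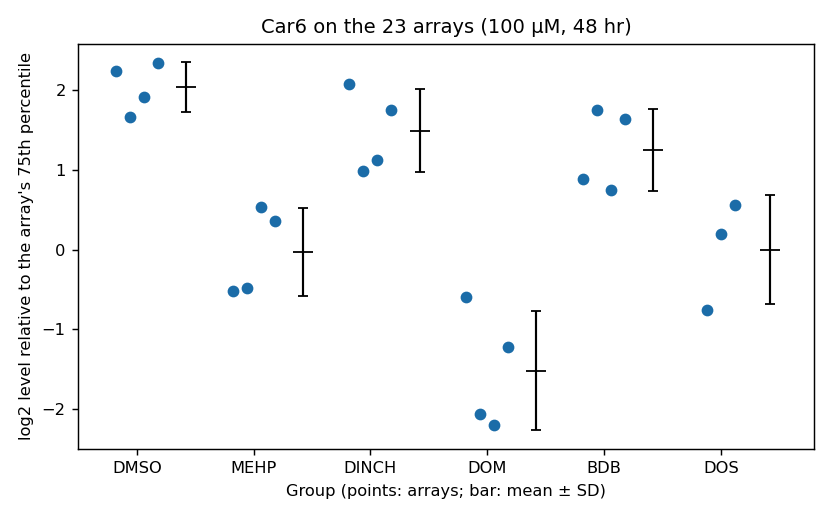
Level of Car6 (vertical axis, log2 intensity relative to the array's 75th percentile) on each array of the 6 groups, with the mean ± SD beside the points. The DOM arrays sit between −2.20 and −0.59, and the MEHP and DOS arrays also lie below all 4 DMSO arrays (1.66 to 2.34).

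The direction for Car6 was the same on each slide. Against the DMSO arrays of the same slide, DOM differed by −3.56, −3.99 and −3.56 log2 units on slides 1, 2 and 3. The MEHP differences were −2.74, −1.25 and −1.99. DOS, which had no array on slide 2, differed by −2.99 on slide 1 and −1.97 on slide 3. Between 1 and 2 arrays of a group stood behind each of these values. Normexp background correction took the median signal of a spot, subtracted its local background, fitted a model to the remainder and added an offset of 50. With it the differences were −2.86 for DOM, −1.82 for MEHP and −1.77 for DOS. Only under this setting was Car6 also called for DOS.

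Each compound was fitted with DMSO alone in limma, and a gene was called where a probe moved past 1.5-fold with a Benjamini-Hochberg adjusted p under 0.05 over all probes tested. Testing required a probe to be detected throughout 1 of the groups compared, meaning well above background and not in the lowest 20% of the array. Only 5 of the 10 members passed this filter: Car4, Car5b, Car6, Car12 and Car13. With DOM 3 of the 5 were called, Car5b higher and Car6 and Car12 lower, where 20.5% of 12005 genes were called, 9.9% higher and 10.6% lower. With MEHP 2 were called, Car5b higher and Car6 lower, against 1.69% of 11948 genes, 1.13% higher and 0.561% lower. With DINCH only Car5b was called, higher, against 8.26% of 11913 genes, 4.25% higher and 4.02% lower. With BDB no member was called, and 0% of 11969 genes. With DOS no member was called either, and 0% of 11936 genes, so that Car6 missed the call there in spite of its size. At an unadjusted p below 0.05 limma gave 3495 of 24292 probes for BDB, 1725 of 24209 for DOS, 3919 of 24190 for MEHP and 6287 of 24002 for DINCH. Since the members were selected on these comparisons, nothing is read from their counts.

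Car12, a membrane-bound isoform with an extracellular active site, was lower with DOM. Its level was 3.11, 2.42, 2.87 and 2.84 in DMSO and 1.93, 1.52, 1.56 and 1.96 with DOM. The highest DOM array was thus below the lowest DMSO array, and the difference was −1.07 (standard error 0.17, 95% interval −1.45 to −0.69, 2.09-fold). Within slides 1, 2 and 3 it was −1.38, −1.09 and −0.88. The other compounds overlapped with DMSO. DINCH had the lowest level among them, 2.25 to 2.63, with a difference of −0.40 (95% interval −0.75 to −0.05), and MEHP, BDB and DOS differed by −0.15, −0.19 and −0.16. DMSO replicate 1 was the highest of all 23 arrays for Car12. Without it the DOM difference was −0.97, and the call remained.

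Car5b, the mitochondrial isoform, ran the other way. Its level was −3.02, −3.36, −3.13 and −3.40 in DMSO. It was −1.83, −1.98, −2.42 and −1.95 with DOM, −2.59, −2.44, −2.42 and −2.58 with MEHP, and −2.84, −2.07, −2.46 and −2.19 with DINCH. All 12 of these arrays lay above every DMSO array. The difference was 1.18 for DOM (standard error 0.15, 2.27-fold), 0.84 for DINCH (standard error 0.17, 1.79-fold) and 0.72 for MEHP (standard error 0.10, 1.64-fold). BDB and DOS overlapped with DMSO, with differences of 0.17 and 0.37.

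The probe of Car5b was dim, and its differences were smaller with normexp. They were 0.41 for DOM, 0.41 for DINCH and 0.26 for MEHP under that setting, and none of the 3 calls remained. Normexp adds an offset of 50 to every spot, which by itself narrows log2 differences of dim probes. How much of the change came from the offset was not tested. The call for DINCH was also lost without DMSO replicate 2, 3 or 4, without DINCH replicate 4, and when probes detected on as few as 1 array, or all probes, were tested. On slide 1 DINCH differed from DMSO by 0.18, but by 1.18 and 1.07 on slides 2 and 3. The call for MEHP was lost without MEHP replicate 2 or 4, where only Car6 was left, and neither gene was called without the filter on dim probes.

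**Figure D2:**
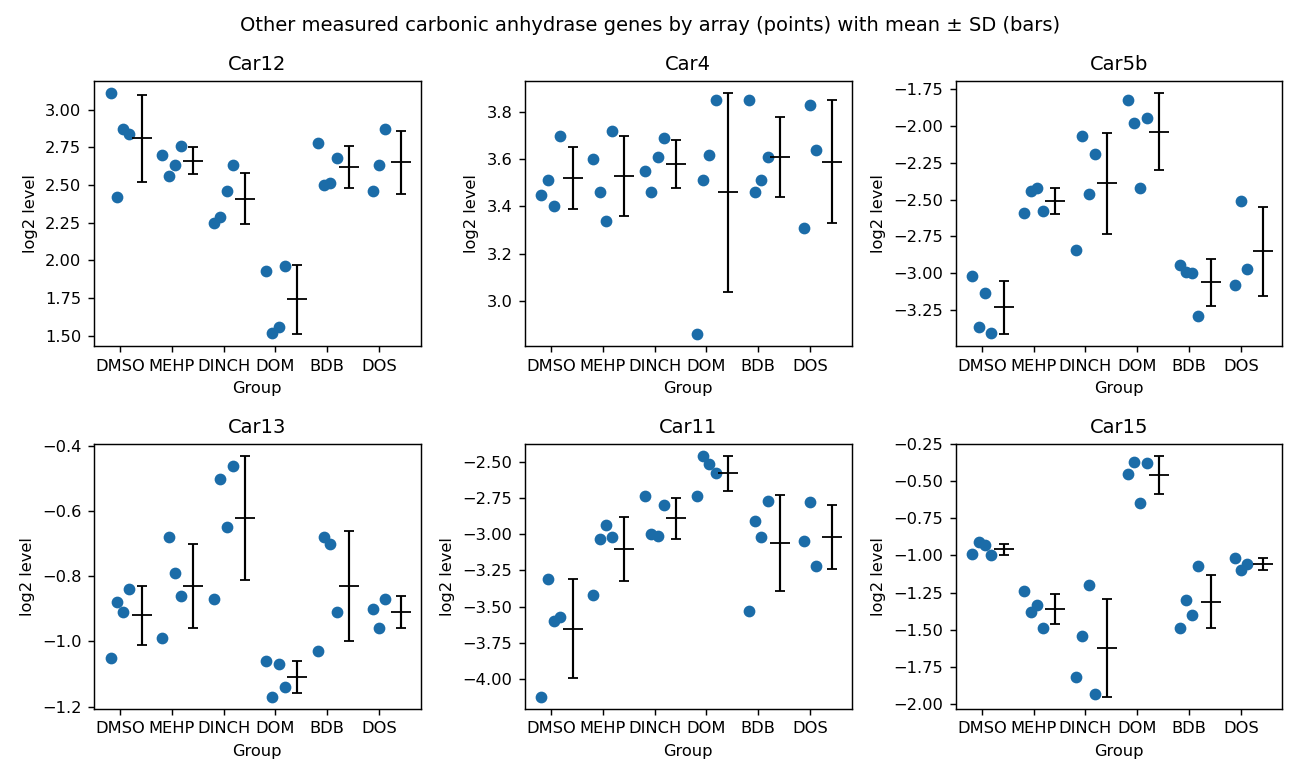
Levels (log2 intensity relative to the array's 75th percentile, own scale per panel) of Car12, Car4, Car5b and Car13, and of Car11 and Car15, on each array, with the mean ± SD beside the points. Car12 was lowest with DOM (1.52 to 1.96), Car5b was highest with DOM, and Car4 showed no separation of the groups.

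Car4, which is tethered to the outer membrane by a lipid anchor, and Car13, a cytosolic enzyme, moved little. The brighter Car4 probe had group means between 3.46 and 3.61, and its differences from DMSO ran from −0.05 to 0.09. DOM replicate 1, at 2.86, was its lowest array. The other Car4 probe was detected on no array, so the probes of this gene disagree, and which transcripts each reads was not tested. Car13 was at −1.05 to −0.84 in DMSO and lowest with DOM, where all arrays (−1.17 to −1.06) lay just below it, with a difference of −0.19 (95% interval −0.39 to 0.01). With DINCH it was 0.30 higher (95% interval 0.04 to 0.55), and DINCH replicate 1, at −0.87, lay within the DMSO range.

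The remaining 5 members could not be tested. Car2, the most active cytosolic form, was well above background on 1 of 23 arrays. Car3, a cytosolic form abundant in muscle and fat, and both probes of Car8 were above background on none. Car9 was near the limit of detection. It was above background on 2 DMSO arrays, 1 DINCH array, 3 DOM arrays and 1 DOS array, and on none with MEHP or BDB. Its levels were −4.11, −4.49, −4.26 and −5.00 in DMSO and −4.68, −3.45, −4.31 and −3.47 with DOM, so the groups overlapped.

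Car14, a transmembrane isoform, differed most between slides. On slide 2 all 7 arrays were well above background, at −2.37 to −1.75. On slide 1 levels were −4.75 to −3.70, with 3 of 8 arrays above background, and on slide 3 they were −4.88 to −3.39, with 4 of 8. The slide accounted for 86.3% of the variance of Car14 between arrays, compared with 6.79% for Car6, 5.74% for Car12 and 2.51% for Car5b. DOS had no array on slide 2, and DMSO had 2. The mean difference between DOS and DMSO was −1.17, but −0.26 within slide 1 and −0.05 within slide 3. Within slides 1, 2 and 3 the differences from DMSO were −0.68, −0.33 and −0.24 for DINCH and −1.02, −0.41 and −0.08 for BDB, below 0 on each slide. They were −0.44, −0.48 and 0.28 for MEHP and −0.68, −0.60 and 0.38 for DOM. With 1 or 2 arrays of a group per slide, and many of them not above background, these values were not tested.

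**Figure D3:**
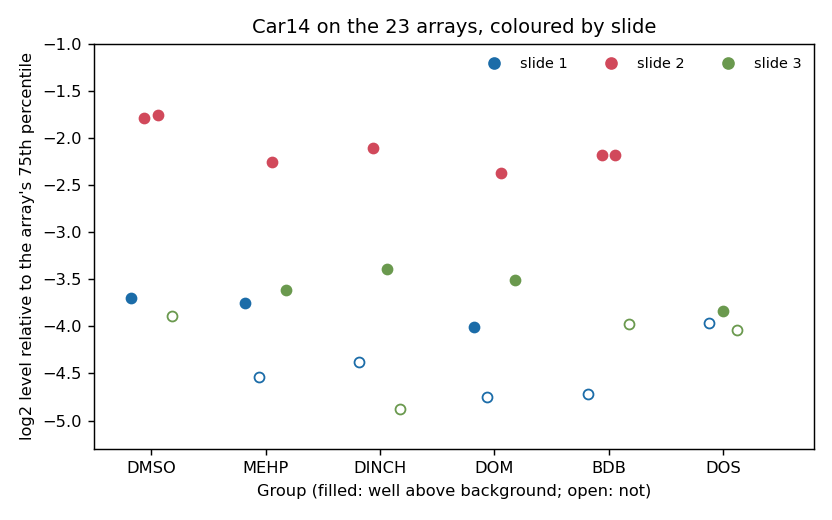
Level of Car14 (log2 intensity relative to the array's 75th percentile) on each array of the 6 groups, coloured by slide, with open points where the probe was not well above background. The 7 arrays of slide 2 lie between −2.37 and −1.75, above all arrays of the other slides.

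DOM and DOS were compared directly, at the same dose and time and in the same slide rows, as the maleate and succinate of the same alcohols. This is 1 pair of compounds, and p-values were adjusted over all 24130 probes tested. In this comparison 15.2% of 11935 genes were called, 7.15% higher and 8.06% lower with DOM. Of the 4 members tested other than Car6, 2 were called, Car5b higher and Car12 lower with DOM. Car12 was at 2.46, 2.63 and 2.87 with DOS, above all DOM arrays, and the difference of −0.91 (standard error 0.16, 95% interval −1.28 to −0.55) had an adjusted p of 0.00789 in limma. Car5b was at −3.08, −2.51 and −2.97 with DOS, below all DOM arrays, with a difference of 0.81 (standard error 0.19, 95% interval 0.38 to 1.24, adjusted p = 0.0207 in limma). Since the DOM arrays are also those on which the members were selected, these p-values are not independent of that choice.

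Car6 was selected for its change with DOM, so its difference between DOM and DOS is a description with no p-value. The interval of this Car6 difference is not adjusted for that choice and supports nothing. The difference was −1.52 (standard error 0.44, 95% interval −2.51 to −0.52), and DOM replicate 1 (−0.59) was above DOS replicate 1 (−0.76), so the groups overlapped. On slide 1 the difference was −0.57 and on slide 3 it was −1.59. For Car13 the difference was −0.20 (95% interval −0.42 to 0.02, adjusted p = 0.175 in limma) and for Car4 it was −0.13 (95% interval −0.67 to 0.40, adjusted p = 0.721 in limma), which leaves a difference in Car4 of either sign possible. With the replicate numbers as pairs, Car12 was called (adjusted p = 0.0158 in limma), and Car5b was not, with an adjusted p of 0.0573. Car12 was also called, and Car5b not, without DOM replicate 2, DOM replicate 4 or DOS replicate 4. Without DOS replicate 1 the adjusted p of Car5b was 0.0801 in limma, and with normexp its difference was 0.20 (adjusted p = 0.35).

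Of the 6 carbonic anhydrase genes outside the set, 4 were measured: Car1 and Car7, both cytosolic, Car11, an inactive relative of Car8, and Car15, which is anchored to the membrane in mice. Car5a was above background on 1 array and Car10 on none. Car11 had a higher mean than DMSO with all 5 compounds and was called with DOM and DINCH. It was at −4.12, −3.31, −3.60 and −3.57 in DMSO and at −2.74, −2.46, −2.52 and −2.58 with DOM, above all DMSO arrays. The difference was 1.07 for DOM (standard error 0.17, adjusted p = 0.00173 in limma) and 0.76 for DINCH (standard error 0.17, adjusted p = 0.0232 in limma). DOS (0.63, above all DMSO arrays, adjusted p = 0.555), BDB (0.59, adjusted p = 0.222) and MEHP (0.55, adjusted p = 0.165) were not called in limma, and whether DINCH differed from these 3 was not tested. With normexp, whose offset narrows log2 differences of dim probes such as that of Car11, those for DOM and DINCH were 0.38 and 0.34. Neither was called. The DINCH call was also lost without DINCH replicate 1 or 4 and without DMSO replicate 3 (adjusted p = 0.061, 0.0594 and 0.0633 in limma). It was lost too without the filter on dim probes (adjusted p = 0.149 in limma) and with detection on 1 array (0.0631). In turn, Car11 was called for BDB with the slide as a block (adjusted p = 0.0497 in limma) and for MEHP with quantile normalization (0.0439).

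Car15 had a lower mean than DMSO with DINCH, MEHP, BDB and DOS, and a higher mean with DOM. It was at −0.99 to −0.91 on the DMSO arrays, at −1.93 to −1.20 with DINCH and at −0.65 to −0.37 with DOM. All DOM arrays lay above those of DMSO, and all DINCH arrays below. The arrays with MEHP (−1.49 to −1.24), BDB (−1.49 to −1.07) and DOS (−1.10 to −1.02) also all lay below those of DMSO. The DINCH difference was −0.66 (standard error 0.15, adjusted p = 0.0273 in limma). The DOM difference of 0.49 (standard error 0.10, adjusted p = 0.00477 in limma) and the MEHP difference of −0.40 (standard error 0.08, adjusted p = 0.0394 in limma) were smaller than 1.5-fold and so were not called. BDB (−0.35, adjusted p = 0.164 in limma) and DOS (−0.10, adjusted p = 0.891 in limma) were not called either. Between DOM and DOS the difference was 0.60 (standard error 0.11, adjusted p = 0.0093 in limma), just past the 1.5-fold limit. It was 0.57 with the replicate pairs and without DOM replicate 2, DOM replicate 4 or DOS replicate 3, which is under that limit. With normexp it was 0.37, and the DINCH difference −0.34, neither of them called, and without the filter on dim probes the adjusted p was 0.113 for DOM against DOS and 0.165 for DINCH in limma. The DINCH call was lost without any 1 of the DMSO arrays and without DINCH replicate 1 or 4, where the adjusted p was 0.0579 to 0.0791 in limma. Car7 (0.36 to 1.36 over all arrays) and Car1 (−4.05 to −2.59) were not called in any comparison.

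**Figure D4:**
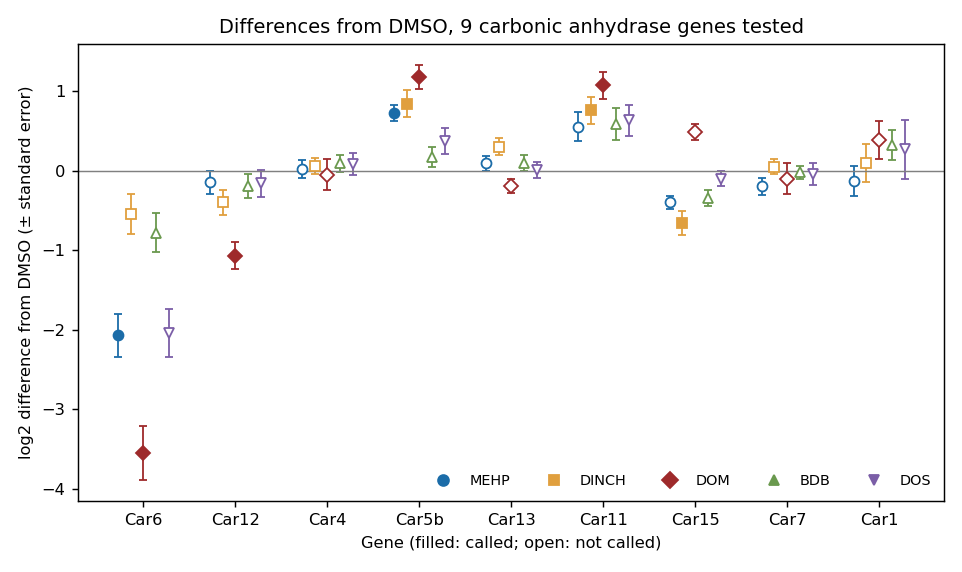
Difference from DMSO (log2, ± standard error) of the 9 carbonic anhydrase genes tested, for each of the 5 compounds, with filled symbols where the gene was called. Car6 had the lowest values, −3.55 with DOM, −2.07 with MEHP and −2.04 with DOS. Car5b and Car11 lay above 0 for every compound.

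Bicarbonate and protons made or used by these enzymes cross the membrane through transporters of the Slc4, Slc9 and Slc26 families and proton channels and pumps. This list, those below and the carbonic anhydrase genes outside the set were chosen with earlier results of these data known. Their p-values are not independent of that choice. Of 32 such genes 13 or 14 were tested in each comparison, and none was called with MEHP, DINCH, BDB or DOS (3, 4, 1 and 1 had an unadjusted p below 0.05 in limma). Over all probes tested, such a p was found for 3919 of 24190, 6287 of 24002, 3495 of 24292 and 1725 of 24209 in the same order. A gene of this list or those below counted once if any of its probes had such a p. The counts of genes and of single probes are therefore unlike units. With DOM 4 of 14 were called higher and 1 lower, where 9.9% of all genes were called higher and 10.6% lower, and the median difference of the list was 0.27, against −0.03 over all genes tested. Slc4a3, an exchanger of chloride for bicarbonate, went from 0.69 to 1.79 (difference 1.09, standard error 0.10, adjusted p = 0.000251 in limma). Slc26a6, another anion exchanger, went from −2.95 to −1.86 (difference 1.09, standard error 0.26, adjusted p = 0.0119 in limma). Slc4a4, which carries sodium with bicarbonate, went from −2.57 to −4.02 (difference −1.45, standard error 0.40, adjusted p = 0.023 in limma). Its arrays with DOM were at −4.90 to −3.41, a dim signal. Slc26a6 and Slc4a4 were called on a probe other than the brightest of the gene, and the values given are of that probe. With normexp 3 of the 14 were called.

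HIF target genes were examined as a group because Car9 is one of them. Of 24 listed genes 22 were tested. With DOM 2 were called higher and 6 lower, with a median of −0.22, beside the same 9.9% and 10.6% of all genes. Hexokinase Hk2 fell by 1.55 log2 units (standard error 0.21, adjusted p = 0.00101 in limma) and the oxidase Ero1a by 1.09 log2 units (standard error 0.17, adjusted p = 0.00178), whereas the glycogen branching enzyme Gbe1 was 1.13 higher (standard error 0.13, adjusted p = 0.000573). With DINCH 5 were called lower, beside 4.02% of all genes, and none higher, with a median of −0.23 against 0.00 over all genes. Ankrd37 differed by −1.58 (standard error 0.19, adjusted p = 0.00363 in limma), Ero1a by −0.78 (adjusted p = 0.0381) and the lactate dehydrogenase gene Ldha by −0.66 (adjusted p = 0.00608, on a dimmer probe). With MEHP, where 0.561% of all genes were called lower, 1 was called, Ankrd37, at −0.83 (standard error 0.12, adjusted p = 0.0172 in limma). None was called with BDB or DOS, where 11 and 3 had an unadjusted p below 0.05 in limma. Over all probes tested, counted singly and not by gene, it was 3495 of 24292 for BDB and 1725 of 24209 for DOS.

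Genes of the ATF4 and CHOP stress response were examined because CHOP drives the intracellular form of Car6. All 18 listed genes were tested, and with DOM 12 were called, each lower, beside 10.6% of all genes, with a median of −0.67. Ddit3, the gene of CHOP, went from 3.25 to 4.10 on the DMSO arrays down to 2.71 to 3.12 with DOM, a difference of −0.67 (standard error 0.18, adjusted p = 0.0212 in limma). Atf4 differed by −0.58 on its brightest probe (standard error 0.10, adjusted p = 0.00283), just under the 1.5-fold limit, and by −0.66 on a dimmer probe that was called. The largest differences were those of Psat1, an enzyme of serine synthesis (−1.30, adjusted p = 0.000634), the transcription factor Atf3 (−1.24, adjusted p = 0.00434) and the pseudokinase Trib3 (−1.21, adjusted p = 0.000744).

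With DINCH 5 of the 18 were called, each lower, beside 4.02% of all genes, with a median of −0.40. They included the cystine transporter Slc7a11 (−1.60, adjusted p = 0.0147 in limma), the lipoprotein receptor Vldlr (−1.09 on a dimmer probe, adjusted p = 0.0264) and Sesn2 (−0.73, adjusted p = 0.00992). Ddit3 differed by 0.03 (standard error 0.31) there. None was called with MEHP, BDB or DOS (7, 4 and 1 had an unadjusted p below 0.05 in limma). Of all probes tested, counted singly and not by gene, 3919 of 24190, 3495 of 24292 and 1725 of 24209 had such a p. Ddit3 differed by −0.49 with MEHP (adjusted p = 0.21), −0.27 with DOS (adjusted p = 0.849) and 0.90 with BDB (adjusted p = 0.103). The counts for DINCH moved with single arrays. Over the 4 lists 12 genes were called, but 7, 4 and 6 without DMSO replicate 1, 3 or 4, and 4, 7 and 4 without DINCH replicate 1, 2 or 4. For MEHP the 1 call became 2 without DMSO replicate 1 or 2 and 0 without MEHP replicate 4. Whether these genes have a part in the level of Car6 was not tested.

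The 5 genes whose pattern over the 23 arrays was most like that of Car6, among 12165 genes, were Erlin1 (Pearson r = 0.918), Akr1b7 (0.915), Cox6a2 (0.915), Angptl6 (0.911) and Acsl1 (0.909). The arrays share groups and slides, and the likeness rests in part on the DOM arrays. Without them r was 0.811 to 0.866. Erlin1, a protein of the endoplasmic reticulum membrane, was at 4.12 in DMSO, 3.70 with MEHP, 3.72 with DOS and 3.03 with DOM. Cox6a2, a subunit of cytochrome c oxidase, was at 1.34, 0.62, 0.54 and −1.23 in the same groups, and at 1.28 with DINCH and 0.76 with BDB. Acsl1, which activates long-chain fatty acids, was at 2.49 in DMSO and 1.57 with DOM. All 5 were lowest with DOM, as Car6 was, which follows in part from how they were picked. Among the members measured on all arrays, Car12 had the highest r with Car6 (0.712) and Car5b the lowest (−0.608), given as a description over the same 23 arrays.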

How the data were processed

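The authors labelled total RNA of each culture with Cy3, hybridized it to its own Agilent mouse array and extracted the spots with Agilent's software. The deposited intensity per spot was linear, background-subtracted and detrended, without scaling across arrays. A second deposited table held log2 values that the authors had scaled to the 75th percentile and centred per probe, and served as an alternative. Here log2 of the processed intensity (floor 1) was set relative to the 75th percentile of the 59305 non-control spots, outlier spots were dropped and repeated spots averaged. Probes were named through RefSeq accessions, which gave 20145 symbols to 26582 of 55681 probes. No positions of probes were used, because array and reference have different genome builds.

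Each compound was fitted with DMSO only, and DOM with DOS, by lmFit and eBayes in limma 3.58.1 (R 4.3.3), with the filter and call rule given in the text. The steps were tested on simulated data. Python 3.11.15 and matplotlib 3.10.9 drew the figures. Each gene took the value of the probe with the highest mean over the 23 arrays, and a gene counted as called when any probe was. A called gene of the lists was instead given by its called probe with the largest difference. The members and gene lists were chosen with earlier results of these data known. Named are all members, other family genes well above background on every array of a group, up to 3 called genes per list and compound with the largest differences, Ddit3 and Atf4, and the 5 genes most like Car6 by Pearson r. Nothing in the labels says whether replicates were separate experiments, although the methods call them biological. The number of arrays limits the precision.

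Replicate numbers are shared between groups. Taken as deviations from the group means, arrays of the same number correlated at 0.17 to 0.50 for DINCH and DMSO, 0.25 to 0.43 for BDB and DMSO, 0.20 to 0.45 for DOS and DMSO and 0.1003 or more for DOM and DOS, above 0.1 for every pair. For MEHP (lowest −0.14) and DOM (lowest 0.04) against DMSO not every pair was above 0.1. The differences, intervals and p-values given as main results are unpaired in every comparison. The replicate number entered only as a block among the alternatives. Alternatives were quantile normalization, normexp (offset 50), no filter, detection on 1 array, all groups in 1 fit, the slide as a block, the replicate number as a block, a variance trend, outlier spots kept, the brightest probe only, the values deposited by the authors, and leaving out each array.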

Additional observations from a re-analysis of the deposited data

Results flagged for a closer look

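Within the 80 groups of 4 arrays checked (16 genes of the family in 5 groups), 3 held an array far from the other arrays of its group, and chance alone sets an array apart in about 1 of 20 groups. Car2 was at −3.84 on DINCH replicate 3, where the other DINCH arrays were at −6.25 to −5.93, and this was the only array on which Car2 was well above background. Car3 was at −4.84 on BDB replicate 2, against −6.33 to −6.09 on the other BDB arrays, and was not above background there. Car10 was at −7.40 on MEHP replicate 1, against −6.61 to −6.49, also below the limit of detection. None of the members with a call had such an array.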

How the results depend on the processing

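The count of 3 members called for DOM was 2 or 3 under all alternatives and arrays left out, and that of 0 for BDB stayed at 0. For MEHP (2 as reported) it was 1 with normexp, 0 without the filter, and 1 to 2 with an array left out. For DINCH (1) it was 0 with normexp, without the filter and with detection on 1 array, and 0 to 1 with an array left out. For DOS (0) it was 1 with normexp, and for DOM against DOS (3, with Car6 counted) it was 0 without the filter, 1 with detection on 1 array and 1 to 3 with an array left out. With the replicate number as a block DOM against DOS gave 1, and this block changed no other count of members or of list genes by more than a factor of 1.5. Over the 4 gene lists, the count for MEHP (1) was 2 with quantile normalization, the slide as a block, all groups in 1 fit or a variance trend, 0 without the filter or with detection on 1 array, and 0 to 2 with an array left out. For DINCH (12) it was 2 without the filter, 5 with detection on 1 array and 4 to 15 with an array left out. For BDB (0) it was 2 with normexp, 4 with the slide as a block or a variance trend, 6 with all groups in 1 fit and 1 with the brightest probes. The list counts for DOM (26) and DOS (0) were within a factor of 1.5. No called difference of a member reversed under any setting. The cause of these moves was not tested, except that no filter and detection on 1 array add probes to the adjustment. Dim probes such as that of Car5b, and those of Car2, Car3, Car8, Car9 and Car14, not detected throughout any group, are limited by signal over background.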
